A study of Mus musculus with 10 samples.

Results

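Methyltransferases form one branch of phase II metabolism, in which a small chemical group is attached to a drug, a toxicant or a metabolite. The methyl group comes from S-adenosylmethionine, which methionine adenosyltransferases make from methionine and ATP, and each transfer leaves S-adenosylhomocysteine behind. The liver is the main site of this chemistry in the body, and it uses S-adenosylmethionine for phosphatidylcholine and creatine as well as for foreign compounds. The 9 genes described here were listed by name for their place in this chemistry, with earlier results of these data known, and all of them were found among the 16647 listed genes. *Tpmt*, *As3mt*, *Nnmt*, *Inmt*, *Gamt* and *Pemt* encode enzymes that methylate thiopurines, arsenic, nicotinamide, indole amines, guanidinoacetate and phosphatidylethanolamine, respectively. *Trmt112* is not itself a methyltransferase but a small activating partner of several of them. *Mat2a* encodes the catalytic subunit of the methionine adenosyltransferase found mostly outside the liver, and *Mat2b* encodes a regulatory subunit that binds it.

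MI-883 was described by its developers as a ligand that activates CAR and antagonizes PXR, the nuclear receptors that control many genes of drug metabolism. RNA was taken from livers of male humanized PXR-CAR-CYP3A4/3A7 mice, in 5 control animals and 5 MI-883-treated animals. All animals received HFD from an age of 10 to 15 weeks, for 8 weeks before treatment and throughout it. They were dosed by gavage 3 times per week for 4 weeks. Treated animals received 5 mg/kg of MI-883 and control animals received the vehicle of DMSO, PEG300 and corn oil alone. Both groups carried the same humanized loci, and the 9 genes examined are those of the mouse.

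Between 23513665 and 36221514 counts fell on genes in each library, with a median of 31734138 in control and 24581671 in MI-883-treated livers. The 9 genes had from 723 counts (*Trmt112*) to 47022 counts (*Inmt*) in a single liver, so all of them passed the minimum of 60 counts summed over the livers and entered the test on 13219 genes. All 8 hepatocyte markers were detected, and no marker list for another cell type separated the groups. The summed level of the hepatocyte markers was 66043 to 76926 CPM in control livers and 57049 to 69260 CPM in MI-883-treated livers (exact two-sided permutation test, p = 0.0476, groups overlapping, 0 of 8 genes called by edgeR). The sums of the other 7 marker lists gave exact permutation p from 0.127 to 0.992, and 1 gene of them, the periportal marker *Hal*, was called, as lower. The part of these markers in the results on the 9 genes was not tested. Among adipocyte markers *Adipoq*, *Plin1* and *Retn* stayed under 0.5 CPM in all livers. The list also holds *Cidec* and *Car3*, and its sum was 711.9 to 896.0 CPM in control and 659.2 to 1094 CPM in treated livers. In whole liver, fewer cells of a type and less RNA per cell cannot be told apart.

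MI-883 treatment was accompanied by higher *Tpmt* and *Mat2a* messenger RNA, by about 1.35-fold and 1.27-fold. None of the 9 genes was called lower. In edgeR's quasi-likelihood test with Benjamini-Hochberg adjustment over all tested genes, 2 of the 9 genes passed the threshold of 0.05 upward, where 0.764% of all tested genes did so. Downward, 0 of the 9 passed, where 0.265% of all tested genes did. DESeq2 also called 2 higher and 0 lower, where it called 2.2% of all tested genes higher and 1.3% lower. At an unadjusted p under 0.05 the edgeR counts were 2 higher, against 8.09% of all tested genes, and 1 lower, against 7.49%, so that the single lower count is close to the share over all genes. The value was above that of every control liver in all MI-883-treated livers for 2 of the 9 genes, against 2.05% of all tested genes, and below it for 0 of the 9, against 1.93%. Of the 9 estimated log2 fold changes 3 were positive and 6 negative (49% of all tested genes were negative), with a median of -0.090, while the median over all tested genes was 0.0045. The log2 fold change stayed within 1 of zero in all 9.

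**Figure D1:**
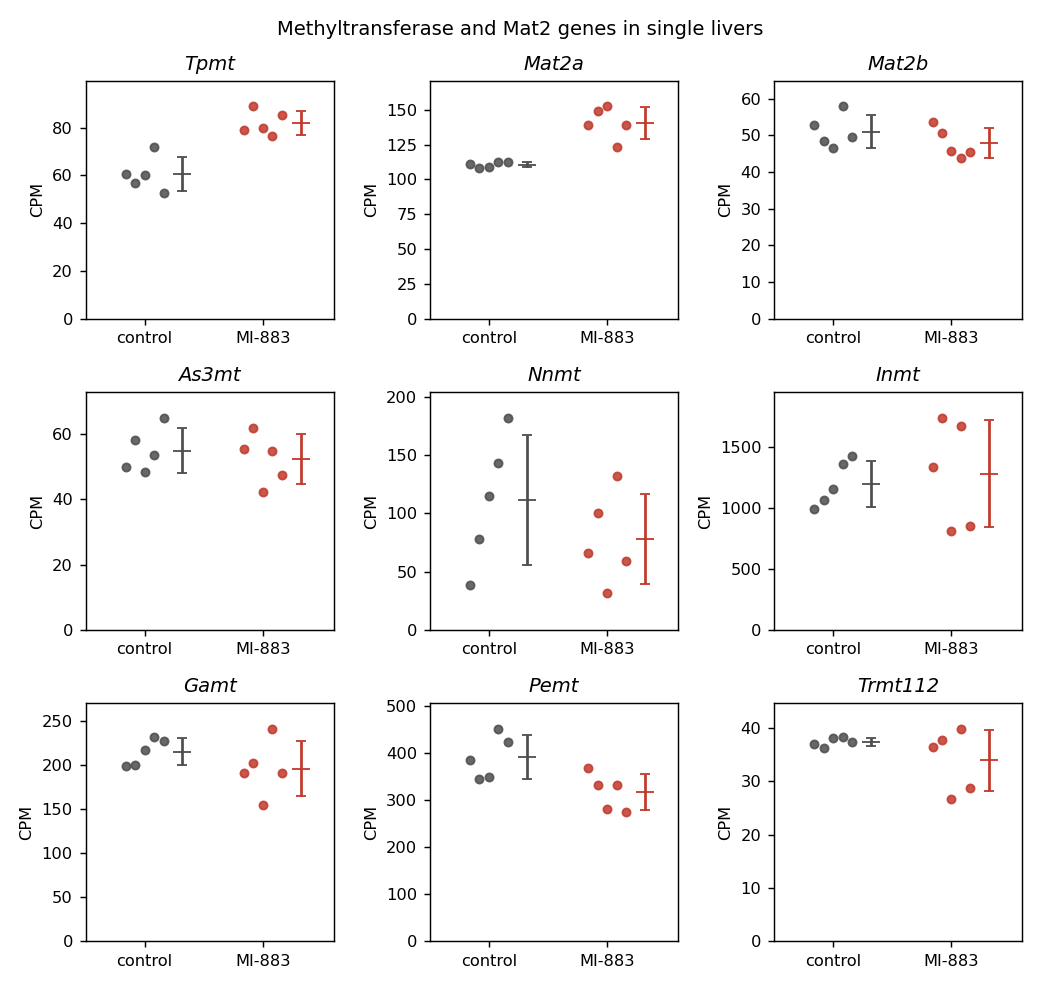
Each panel plots one gene in CPM (counts scaled to an equal library size by TMM, linear axis from 0), with 1 point per liver for 5 control and 5 MI-883-treated livers and a bar for the mean and SD of each group. The groups do not overlap for *Tpmt* (52.6 to 72.0 against 76.5 to 88.9 CPM) and *Mat2a* (108.2 to 112.5 against 123.1 to 152.4 CPM), and they overlap in the other 7 panels.

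*Tpmt* (Entrez 22017, chr13:47021987-47043338 on the minus strand, GRCm38.p6) encodes thiopurine S-methyltransferase, which inactivates azathioprine and mercaptopurine. The promoters of *Tpmt* and *Mat2a*, the pair of genes that rose, are printed here as given by RefSeq on GRCm38.p6, from 250 bases before to 50 bases after the start site, both read from the minus strand (chr13:47043168-47043467 and chr6:72439507-72439806). Capitals mark the GC box GGGCGG and the CCAAT box on either strand.
Tpmt: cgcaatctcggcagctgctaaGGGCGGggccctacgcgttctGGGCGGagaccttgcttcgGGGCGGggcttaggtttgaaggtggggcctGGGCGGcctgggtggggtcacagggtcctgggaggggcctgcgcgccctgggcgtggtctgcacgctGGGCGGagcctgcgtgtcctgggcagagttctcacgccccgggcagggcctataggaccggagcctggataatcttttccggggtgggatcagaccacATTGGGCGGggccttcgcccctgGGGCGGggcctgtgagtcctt
Mat2a: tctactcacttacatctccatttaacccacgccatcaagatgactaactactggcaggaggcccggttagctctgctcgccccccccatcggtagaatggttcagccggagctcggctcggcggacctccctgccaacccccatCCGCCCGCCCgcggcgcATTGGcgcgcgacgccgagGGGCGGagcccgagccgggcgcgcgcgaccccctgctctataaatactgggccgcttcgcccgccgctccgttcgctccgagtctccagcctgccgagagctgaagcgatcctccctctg
The *Tpmt* window held 7 GGGCGG matches and the *Mat2a* window held 3, of which a pair overlap each other, and 35.7% of all 32851 promoters of this length held at least 1. Each window held 1 CCAAT match, found in 37.4% of all promoters, and in *Tpmt* it overlaps a GGGCGG match. TATAAA was found once in *Mat2a* and not in *Tpmt* (13.6% of promoters). GCGTG, the core of the dioxin response element, was found 4 times in *Tpmt* and once in *Mat2a* (32.4% of promoters). CAR and PXR bind pairs of the half-sites AGGTCA and AGTTCA, and neither half-site was found in either window on either strand. A direct repeat of them with a spacer of 4 bases was therefore absent by definition. AGGTCA occurred in 16.3%, AGTTCA in 14.0% and the direct repeat in 0.0274% of all promoters. Windows of the other genes with an entry (8 of the 9 genes in all) held neither half-site, and *Nnmt* had no entry. These are matches of letters in 300 bases and were not tested as binding sites, and sites outside the windows were not searched.

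*Tpmt* read 60.8, 57.0, 60.2, 72.0 and 52.6 CPM in control livers 1 to 5 and 79.2, 88.9, 80.0, 76.5 and 85.2 CPM in MI-883-treated livers 1 to 5. The lowest treated liver lay above the highest control, so the groups did not overlap. The mean went from 60.5 ± 7.17 to 82.0 ± 5.01 CPM (SD, n = 5 each), a log2 fold change of 0.44 with a standard error of 0.0832 and a 95% interval from 0.26 to 0.62. The adjusted p was 0.0259 in edgeR and 0.000218 in DESeq2, and the exact permutation test of the single gene gave p = 0.00794, the smallest that 5 against 5 allows. Leaving out 1 liver kept the log2 fold change between 0.39 and 0.51, but the edgeR adjusted p passed 0.05 in 5 of 10 such fits. It was 0.0680 and 0.0761 without MI-883 replicates 2 and 5, and 0.0689, 0.0644 and 0.0688 without control replicates 2, 3 and 5. The processed pseudogene *Gm18807* lies on the opposite strand within *Tpmt* and covers 17.4% of its exonic bases, and the same stretch makes up all of the 14.0% of 100-base windows of *Tpmt* transcripts that occur in another gene. The library kit keeps strand, but whether counting used it is not given in the sources used here, so reads of such antisense genes cannot be told apart from those of the gene itself.

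The tested genes whose log2 CPM followed *Tpmt* most closely over the 10 livers were *Nat8f5* (Pearson r = 0.97), *Phkb* (r = 0.97) and *Ints2* (r = 0.96), with the group difference included in r. *Nat8f5* was itself called higher by edgeR, with a log2 fold change of 1.11 and an adjusted p of 0.00213. *Phkb* and *Ints2* had log2 fold changes of 0.22 and 0.31 and edgeR adjusted p of 0.163 and 0.176.

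Genes of thiopurine handling beside *Tpmt* were examined as a list of 8, all tested. None was called by edgeR, and at an unadjusted p under 0.05 there was 1 higher and 1 lower, against 8.09% and 7.49% of all tested genes, which is about the share over all genes. *Hprt*, whose enzyme activates thiopurine bases and which had the highest level per length of the list, averaged 45.2 ± 5.40 CPM without and 56.5 ± 3.87 CPM with treatment. This log2 fold change of 0.32 had an adjusted p of 0.104 in edgeR and 0.0264 in DESeq2. The control median of *Hprt* was exceeded in 5 of 5 treated livers, and the groups overlapped between 52.7 and 52.9 CPM.

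*Mat2a* (Entrez 232087, chr6:72432796-72439556 on the minus strand) rose as well. Control livers 1 to 5 had 111.0, 108.2, 108.9, 112.1 and 112.5 CPM and MI-883-treated livers 1 to 5 had 139.0, 149.0, 152.4, 123.1 and 139.4 CPM. Control livers were close together, with a coefficient of variation of 1.74% against 8.11% in treated livers, and the groups did not overlap. The mean went from 110.5 ± 1.92 to 140.6 ± 11.4 CPM (SD, n = 5 each), a log2 fold change of 0.35 with a standard error of 0.0666 and a 95% interval from 0.20 to 0.49. The adjusted p was 0.0260 in edgeR and 4.9e-05 in DESeq2, and the exact permutation p was 0.00794. Without 1 liver the log2 fold change stayed between 0.32 and 0.39, and 3 of 10 such fits passed the threshold of edgeR. The adjusted p was 0.0730, 0.0609 and 0.0677 without MI-883 replicates 2, 3 and 5. Without control replicates 2, 3, 4 and 5 it was 0.0701, 0.0674, 0.0596 and 0.0695. The opposite-strand gene *Particl* shares 11.3% of the exonic bases of *Mat2a*, and 8.31% of 100-base windows of *Mat2a* transcripts occur in *Particl* or *Gm9523*. *Particl* and *Gm18807* were not analysed here as genes of their own.

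Over the 10 livers *Mat2a* was most closely followed by *Atp6v0c* (Pearson r = 0.96), *Tfg* (r = 0.95) and *Abcc4* (r = 0.94). Here too the group difference is included in r, so genes raised by treatment score high. *Abcc4*, which encodes the export pump Mrp4, was called by edgeR with a log2 fold change of 2.45 and an adjusted p of 7.2e-06, from 3.43 ± 0.703 to 18.9 ± 4.06 CPM. *Atp6v0c* and *Tfg* had log2 fold changes of 0.17 and 0.22, with edgeR adjusted p of 0.176 and 0.110.

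The 5 listed regulators of *Mat2a* messenger RNA (*Mettl16*, *Ythdc1*, *Elavl1*, *Hnrnpd* and *Nudt21*) were all tested and none was called. Over all tested genes edgeR called 0.764% higher and 0.265% lower, so 0 of 5 is near that share. At an unadjusted p under 0.05 there were 0 higher and 0 lower, against 8.09% and 7.49% of all tested genes. The log2 fold changes of the 5 lay between -0.13 and 0.065. *Hnrnpd*, the highest of them per length, encodes an RNA-binding protein and had 53.3 ± 2.76 CPM in control and 48.6 ± 3.86 CPM in treated livers (log2 fold change -0.13, edgeR adjusted p = 0.374).

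*Mat2b* (Entrez 108645, chr11:40679314-40695203 on the minus strand) did not pass the test. It had 52.8, 48.3, 46.5, 57.8 and 49.4 CPM in control livers and 53.7, 50.5, 45.8, 43.9 and 45.5 CPM in treated livers, and the groups overlapped. Its log2 fold change was -0.090 with a 95% interval from -0.26 to 0.081 (edgeR adjusted p = 0.613).

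Ratios of counts within a liver do not depend on how libraries are scaled, and 4 were compared by exact two-sided permutation tests with adjustment over the 4. *Mat2a*, already called higher from the same counts, enters the ratios with *Mat2b* and with *Mat1a*, so these are not results apart from its rise. The ratio of *Mat2b* to *Mat2a* fell. Its log2 value was -1.07, -1.16, -1.23, -0.96 and -1.19 in control livers and -1.37, -1.56, -1.73, -1.49 and -1.61 in treated livers, with no overlap. The difference was -0.43, or 0.741-fold (exact permutation p = 0.00794, adjusted p = 0.0317), and the adjusted p was 0.0635 without control replicate 4. *Mat1a* encodes the catalytic subunit that predominates in adult hepatocytes. The log2 ratio of *Mat2a* to *Mat1a* was -4.87 ± 0.345 in control and -4.19 ± 0.258 in treated livers (SD, n = 5), a rise of 0.68 or 1.6-fold (exact permutation p = 0.0238, adjusted p = 0.0317). All 5 treated livers lay above the control median, while control replicate 1 at -4.40 and MI-883 replicates 2 and 4 at -4.41 and -4.51 made the groups overlap. The adjusted p was between 0.0529 and 0.0635 without any single one of control replicates 2 to 5 or MI-883 replicates 3 and 5. *Mat1a* on its own went from 3310 ± 831 to 2585 ± 390 CPM (log2 fold change -0.36, edgeR adjusted p = 0.317), which was not a call.

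**Figure D2:**
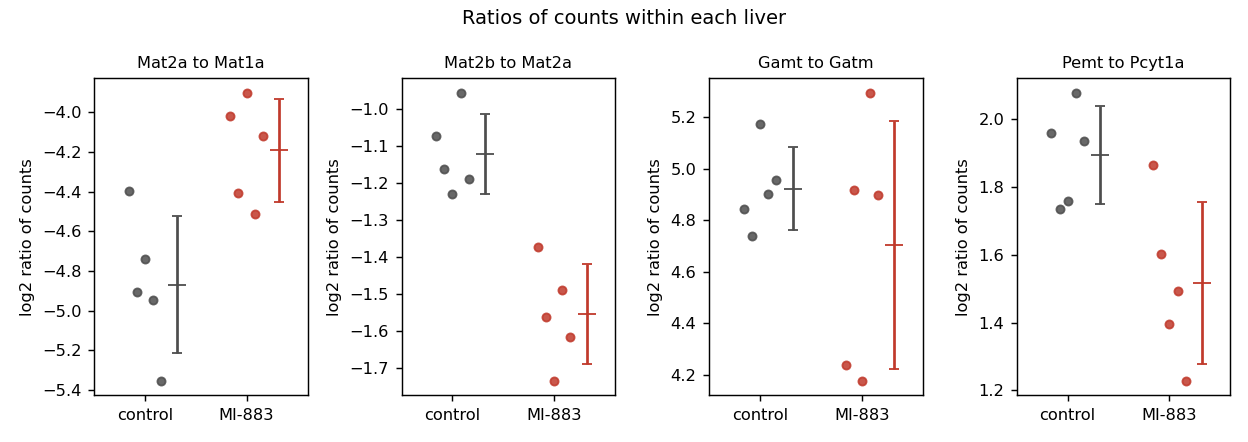
Log2 ratios of counts within each liver for the 4 pairs of genes, with 1 point per liver and a bar for the mean and SD of 5 livers. The axes do not start at 0 because the values are logarithms. The *Mat2b* to *Mat2a* values of treated livers (-1.73 to -1.37) all lie below those of control livers (-1.23 to -0.96), and the other 3 panels show overlapping groups.

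Around these subunits, the methionine cycle and one-carbon list of 20 genes held 0 calls by edgeR, with 0 higher and 3 lower at an unadjusted p under 0.05 (8.09% and 7.49% of all tested genes) and 2 lower by DESeq2 (1.3% of all tested genes). Its median log2 fold change was -0.077, against 0.0045 over all tested genes. *Gnmt*, which consumes excess S-adenosylmethionine by methylating glycine and was the highest of the list per length, had 950.6 to 1945 CPM in control and 875.2 to 1508 CPM in treated livers (log2 fold change -0.34, edgeR adjusted p = 0.400).

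*Pemt* (Entrez 18618, chr11:59970614-60046561 on the minus strand) encodes the enzyme that turns phosphatidylethanolamine into phosphatidylcholine and is one of the main users of S-adenosylmethionine in liver. Control livers 1 to 5 had 384.8, 344.7, 349.7, 452.0 and 424.5 CPM, and MI-883-treated livers 1 to 5 had 367.5, 331.5, 281.6, 331.6 and 274.5 CPM. All 5 treated livers lay below the control median, and only MI-883 replicate 1 lay within the control range. The log2 fold change was -0.30 with a standard error of 0.104 and a 95% interval from -0.53 to -0.078. *Pemt* failed the adjustment over all genes in both tools (edgeR adjusted p = 0.187, DESeq2 adjusted p = 0.0985), with an unadjusted edgeR p of 0.0122 and an exact permutation p of 0.0397. It was the gene behind the single lower count at an unadjusted p under 0.05.

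*Pcyt1a* encodes the rate-limiting enzyme of the choline route to the same lipid. The log2 ratio of *Pemt* to *Pcyt1a* was 1.96, 1.73, 1.76, 2.08 and 1.94 in control livers and 1.86, 1.602, 1.39, 1.49 and 1.23 in treated livers. It fell by 0.38 on the log2 scale (exact permutation p = 0.0238, adjusted p = 0.0317), with MI-883 replicate 1 inside the control range. The adjusted p was between 0.0529 and 0.0635 without any single control liver or without MI-883 replicate 3 or 5. *Pemt*, whose log2 fold change of -0.30 failed the adjustment over all genes, enters this ratio. The ratio is therefore not a result apart from *Pemt*, and its own adjustment covers only the 4 ratios. *Pcyt1a* alone had 104.8 ± 4.51 CPM in control and 110.4 ± 7.05 CPM in treated livers (log2 fold change 0.075, edgeR adjusted p = 0.602).

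Of 13 genes of phosphatidylcholine synthesis 11 were tested and 0 were called by edgeR, with 1 higher and 1 lower at an unadjusted p under 0.05, about the share over all tested genes (8.09% and 7.49%). *Pcyt2*, the corresponding enzyme of the ethanolamine route and the highest of the list per length, had 666.5 ± 34.0 CPM in control and 582.4 ± 20.7 CPM in treated livers without overlap. Its log2 fold change of -0.19 had an adjusted p of 0.199 in edgeR and 0.0195 in DESeq2.

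*Nnmt* (Entrez 18113, chr9:48538002-48607655 on the minus strand) encodes nicotinamide N-methyltransferase, which links NAD turnover to the use of methyl groups. It varied most from animal to animal, with 38.2, 78.1, 115.4, 143.2 and 182.4 CPM in control livers and 66.3, 100.8, 31.5, 132.1 and 59.4 CPM in treated livers. The coefficients of variation were 50.2% and 50.04%, and the fitted spread of *Nnmt* exceeded that of 97.0% of the tested genes. The log2 fold change of -0.51 had a standard error of 0.397 and a 95% interval from 0.386-fold to 1.27-fold (edgeR adjusted p = 0.562). These livers are thus compatible with a change in either direction within that interval, and with none. The value moved to -0.072 when 1 surrogate variable entered the fit, and to -0.26 without control replicate 5, -0.31 without MI-883 replicate 3 and -0.79 without MI-883 replicate 4.

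The list for nicotinamide and NAD had 12 of 13 genes tested and 0 called by edgeR, with 3 higher and 1 lower at an unadjusted p under 0.05, against 8.09% and 7.49% of all tested genes. *Aox3*, an aldehyde oxidase that oxidizes N-methylnicotinamide, the product of *Nnmt*, had the highest level per length of the list, with 433.3 ± 93.6 CPM in control and 406.1 ± 46.3 CPM in treated livers (log2 fold change -0.093, edgeR adjusted p = 0.766).

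*Inmt* (Entrez 21743, chr6:55170627-55174990 on the minus strand), the indolethylamine N-methyltransferase, was the most abundant of the 9 per length. It had 986.9, 1062, 1155, 1362 and 1421 CPM in control livers and 1329.8, 1738, 808.9, 1673 and 850.6 CPM in treated livers. The lowest and the highest values both belonged to treated livers, and the coefficient of variation was 15.7% in control and 34.3% in treated livers. The log2 fold change was 0.096 with a 95% interval from -0.35 to 0.55 (edgeR adjusted p = 0.855), and it turned negative without MI-883 replicate 2 (-0.039) or 4 (-0.019).

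*Gamt* (Entrez 14431, chr10:80258151-80261025 on the minus strand) makes creatine from guanidinoacetate. It had 199.2, 200.8, 217.5, 232.4 and 227.9 CPM in control livers and 191.4, 202.4, 154.5, 241.6 and 191.7 CPM in treated livers. Of the treated livers 4 lay below the control median and the groups overlapped, with a log2 fold change of -0.14 and a 95% interval from -0.36 to 0.088 (edgeR adjusted p = 0.558). *Gatm*, which makes guanidinoacetate and is low in this tissue, had 7.10 ± 0.684 and 7.57 ± 1.70 CPM (log2 fold change 0.094, edgeR adjusted p = 0.784). The log2 ratio of *Gamt* to *Gatm* was 4.92 ± 0.161 in control and 4.70 ± 0.480 in treated livers (exact permutation p = 0.365). Of 7 genes asked for creatine 4 were tested and 0 were called by edgeR. At an unadjusted p under 0.05 there were 0 as well, against 8.09% higher and 7.49% lower of all tested genes. *Slc6a6*, listed there for its relation to the creatine transporter but known as a taurine transporter, was the highest per length, with 61.0 ± 10.01 and 59.3 ± 9.16 CPM.

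*As3mt* (Entrez 57344, chr19:46707157-46741099 on the plus strand) methylates inorganic arsenic. It had 49.8, 58.1, 48.4, 53.6 and 65.1 CPM in control livers and 55.5, 61.8, 42.4, 54.9 and 47.5 CPM in treated livers. The groups overlapped over most of their range, and the log2 fold change of -0.069 had a 95% interval from -0.30 to 0.17 (edgeR adjusted p = 0.790). Of 12 other methyltransferases of small molecules, such as catechol O-methyltransferase, 8 were tested and 0 were called by edgeR, with 1 higher and 2 lower at an unadjusted p under 0.05, against 8.09% and 7.49% of all tested genes. *Mettl7b*, a thiol methyltransferase and the highest of them per length, had 1007 ± 106 and 986.1 ± 85.1 CPM (log2 fold change -0.030, edgeR adjusted p = 0.907).

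*Trmt112* (Entrez 67674, chr19:6909698-6911028 on the plus strand) had 37.0, 36.2, 38.1, 38.3 and 37.4 CPM in control livers and 36.4, 37.7, 26.8, 39.9 and 28.8 CPM in treated livers. MI-883 replicates 3 and 5 lay below all control livers and replicate 4 above them, so that the coefficient of variation was 2.23% in control and 17.1% in treated livers. The log2 fold change was -0.14 with a 95% interval from -0.36 to 0.079 (edgeR adjusted p = 0.532). The counts of this short gene are uncertain, because 41.5% of 100-base windows of its transcripts occur in *Prdx5*, which overlaps 33.2% of its exonic bases on the opposite strand, or in the pseudogenes *Trmt112-ps1* and *Trmt112-ps2*. *Prdx5* itself had 307.5 ± 23.9 and 284.9 ± 46.4 CPM (log2 fold change -0.11, edgeR adjusted p = 0.647). All 7 listed partner enzymes of *Trmt112*, which methylate RNA or protein, had a negative log2 fold change, with a median of -0.14 and 0 calls by edgeR or DESeq2. For *Alkbh8* among them this sign was not stable. Its log2 fold change of -0.046 ranged from -0.14 to 0.086 without 1 liver, and 3 treated livers lay above its control median. At an unadjusted p under 0.05 there were 3 of 7 lower, against 7.49% of all tested genes, and 49% of all tested genes had a negative value. *Bud23*, the ribosomal RNA methyltransferase that was highest per length among them, had 23.4 ± 1.21 and 21.1 ± 1.30 CPM without overlap (log2 fold change -0.15, edgeR adjusted p = 0.312).

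**Figure D3:**
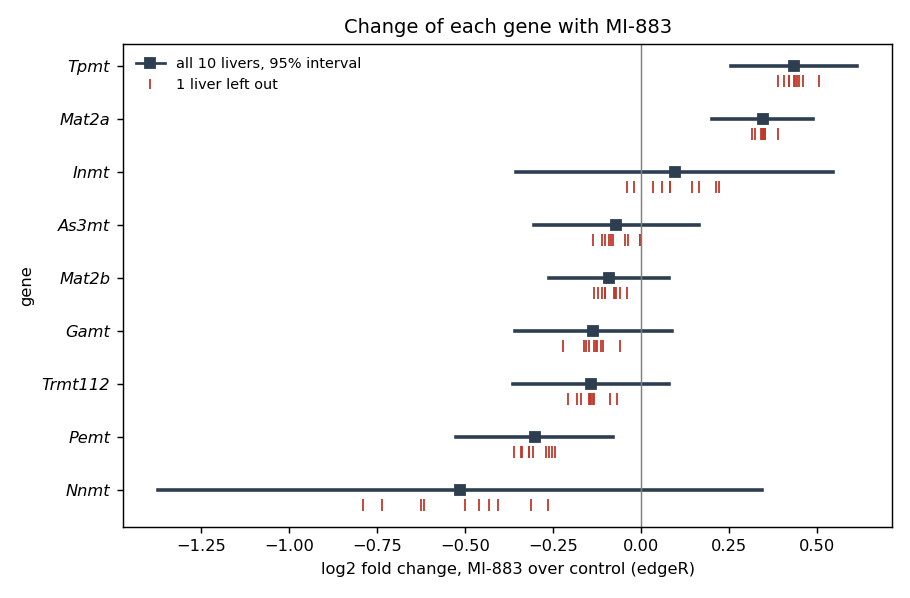
Squares give the log2 fold change of each of the 9 genes in edgeR (MI-883 over control, 10 livers) with bars for the 95% interval, and red ticks give the values after leaving out each of the 10 livers. The intervals of *Tpmt* (0.26 to 0.62), *Mat2a* (0.20 to 0.49) and *Pemt* (-0.53 to -0.078) exclude 0 before adjustment for the number of genes, and *Nnmt* has the widest interval.

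Over all 8 lists beside the 9 genes, 75 of 82 listed genes were tested. By edgeR 0 were called, where 0.764% of all tested genes were called higher and 0.265% lower, so this 0 is near that share. The same shares apply to the count of 0 in each single list. At an unadjusted p under 0.05 there were 6 higher and 11 lower, against 8.09% and 7.49% of all tested genes, so that the higher count was at the share over all genes. DESeq2 called 2 higher (*Nadk* and *Hprt*) and 3 lower (*Adk*, *Cbs* and *Pcyt2*), against 2.2% and 1.3% of all tested genes. The median log2 fold change of the tested genes of the lists was -0.030.

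Levels of the 9 genes were compared per kilobase of the longest annotated transcript. In control livers *Inmt* stood at 1112 ± 175 CPM per kilobase, followed by *Pemt* at 390.0 ± 46.6, *Gamt* at 218.2 ± 15.4 and *Nnmt* at 106.9 ± 53.7 CPM per kilobase (SD, n = 5). *Trmt112* at 38.0 ± 0.846, *Mat2a* at 32.6 ± 0.567 and *As3mt* at 31.7 ± 3.91 CPM per kilobase came next. *Tpmt* and *Mat2b* were the lowest with 22.4 ± 2.65 and 20.7 ± 1.82 CPM per kilobase. The ranges of control livers overlapped between neighbours for *Nnmt* and *Trmt112*, for *Mat2a* and *As3mt* and for *Tpmt* and *Mat2b*, and were apart for the other 5 neighbouring pairs. *Inmt*, *Pemt* and *Gamt* thus had the highest levels of the 9 genes, and *As3mt* and *Tpmt* were among the lower ones. In treated livers *Tpmt* stood at 30.3 ± 1.85 and *Mat2a* at 41.5 ± 3.37 CPM per kilobase. *Mat1a* had 954.3 ± 240 CPM per kilobase in control livers, far above *Mat2a*.

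**Figure D4:**
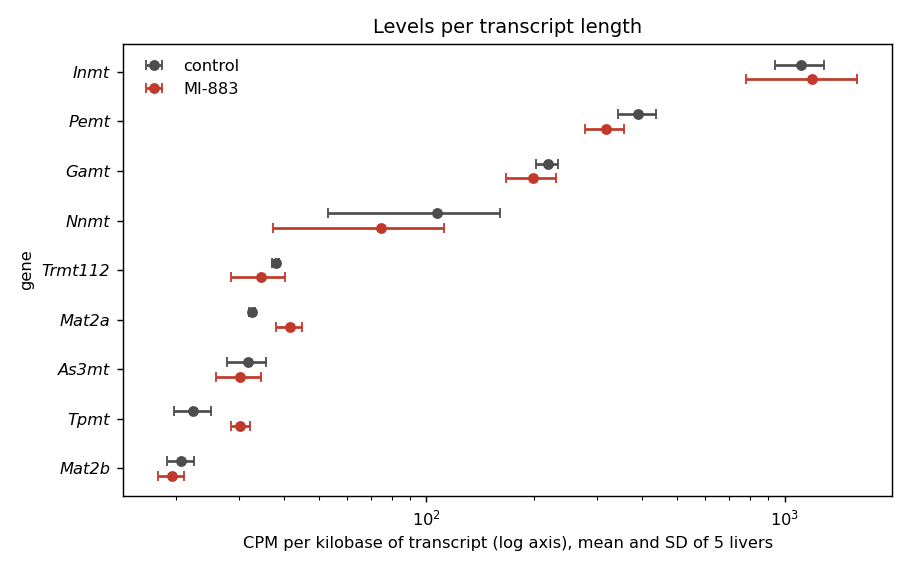
Mean level of each gene in CPM per kilobase of transcript on a log axis, with bars for the SD of 5 livers, for control (grey) and MI-883-treated (red) livers. *Inmt* at 1112 and *Mat2b* at 20.7 CPM per kilobase mark the ends of the control range.

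Apart from the treatment, some of the 9 genes varied together from liver to liver. With each group's mean removed, 36 pairs were compared over 10 livers by permutation within groups with adjustment over the 36. Pearson's r passed for 6 pairs, all among *Nnmt*, *Inmt*, *Gamt* and *Trmt112*. Spearman's rho passed only for *Nnmt* with *Gamt* and *Nnmt* with *Inmt*. The rest of the 6 had an adjusted permutation p of rho from 0.0688 to 0.128. *Nnmt* and *Gamt* had r = 0.86 (permutation p = 0.00031, adjusted p = 0.00936) and Spearman's rho = 0.96 (permutation p = 0.00048, adjusted p = 0.0173), with r = 0.85 without the 2 livers farthest from the median. *Nnmt* and *Inmt* had r = 0.82 (permutation p = 0.00052, adjusted p = 0.00936) and rho = 0.85 (permutation p = 0.00176, adjusted p = 0.0317), with r = 0.80 without 2 livers. For *Gamt* and *Trmt112* r dropped from 0.80 to 0.33 without 2 livers, so this pair rests on those. The 6 pairs depend on library scaling. With total counts in place of TMM, 0 of 36 pairs passed, and *Nnmt* with *Gamt* had r = 0.71 (adjusted permutation p = 0.175) and *Nnmt* with *Inmt* had r = 0.76 (adjusted permutation p = 0.0549). Without MI-883 replicate 3, 0 of 36 passed as well. The TMM factor was 0.949 to 1.05 in control and 0.955 to 1.10 in treated livers, and in both groups the liver with the highest factor had the lowest *Nnmt* and the liver with the lowest factor the highest *Nnmt*. With group means removed, r with the log2 TMM factor was -0.96 for *Nnmt*, -0.91 for *Gamt*, -0.89 for *Inmt* and -0.76 for *Trmt112*. It was -0.69 for *As3mt*, -0.51 for *Pemt*, -0.097 for *Tpmt*, -0.032 for *Mat2b* and 0.40 for *Mat2a*. The part of this factor in the pairs was not tested. *Tpmt* and *Mat2a* were in none of the 6 pairs.

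**Figure D5:**
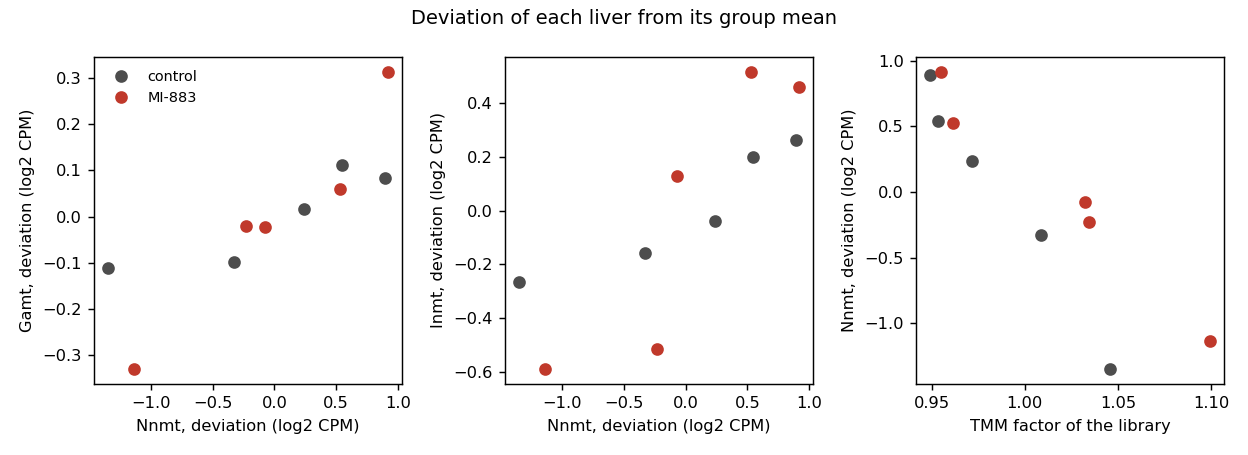
Deviations of single livers from their group mean in log2 CPM, for *Gamt* against *Nnmt*, *Inmt* against *Nnmt*, and *Nnmt* against the TMM factor of the library (no unit), with 1 point per liver. *Gamt* and *Inmt* are high where *Nnmt* is high (r = 0.86 and 0.82), and *Nnmt* is low where the factor is high.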

How the data were processed

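Paired-end RNA-Seq was made from 5 control and 5 MI-883-treated livers with a directional kit. Per the study's methods, the authors used STAR for alignment to mm10 and featureCounts for gene counts, and the submitters' processing notes add fastp 0.23.0. The deposited values are raw counts per gene, named by Entrez number, without normalization. Versions of STAR and featureCounts, the annotation and the strand setting are not given in the sources used here. Symbols came from RefSeq GRCm38.p6, which matched 16644 of 16647 listed genes.

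Livers were grouped by the treatment in their labels, and no covariate was used. Each library was taken as another animal, and replicate libraries differed by far more than counting noise. A gene was tested if its counts over all 10 livers reached a sum of 60, by the quasi-likelihood test of edgeR 4.0.16 under R 4.3.3 (TMM factors, Benjamini-Hochberg adjustment, threshold 0.05). The study's filter can also be read as 60 counts in every sample, which was an alternative. Single values were compared by exact two-sided permutation tests of mean log2 CPM, and ratios used counts with 0.5 added. Pairs of genes were tested by 100000 permutations within groups. Intervals are 95% intervals of the fitted log2 fold change. Coordinates and transcript lengths are those of GRCm38. The scripts were tested on simulated data. At the threshold of 0.05, 7.11% of the edgeR calls and 14.4% of the DESeq2 calls there were of unchanged genes. The planted log2 changes were 1 in size in 108 genes and 1.5 in 92 genes, of 13156. Changes as small as those of *Tpmt* and *Mat2a* were not simulated.

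The 9 genes and the lists around them were chosen with earlier results of these data known. The text names the 9 genes, the gene of each list with the highest level per length, any listed gene called by edgeR, *Mat1a*, *Gatm* and *Pcyt1a* for the ratios, and the 3 genes most like each of the 9 that was called. Genes outside this rule that are named singly were chosen after their values were seen. Alternatives were DESeq2 1.42.0, its size factors, total counts, other filters, 1 surrogate variable (sva 3.50.0), a replicate block and leaving out each liver.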

Additional observations from a re-analysis of the deposited data

Results flagged for a closer look

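Of 48 groups of 5 livers examined for a single liver far from the others, 1 held such a liver, where chance gives about 2.4. *Aox3*, the aldehyde oxidase that acts on the product of *Nnmt*, had 594.3 CPM in control replicate 3, and the nearest control liver had 430.2 CPM. Without that liver the log2 fold change of *Aox3* was 0.047 in place of -0.093, and neither value passed the test of edgeR.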

How the results depend on the processing

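With DESeq2, its size factors, total counts, other filters or 1 surrogate variable, *Tpmt* and *Mat2a* remained the 2 genes called higher of the 9, and 0 were called lower in all 8 alternatives and all 10 fits without 1 liver. The replicate block gave 0 called higher, with edgeR adjusted p of 0.0737 for *Tpmt* and 0.0810 for *Mat2a*, and leaving out 1 liver gave 0 to 2. Same-numbered livers deviated together with correlations from -0.11 to 0.37, and 0 of 5 control livers correlated best with the treated liver of its own number, so the numbers were not taken as pairs. In the paired exact permutation test, whose smallest p is 0.0625, the ratio differences, which pairing cannot move, of 0.68 (*Mat2a* to *Mat1a*), -0.43 (*Mat2b* to *Mat2a*) and -0.38 (*Pemt* to *Pcyt1a*) each had an adjusted p of 0.0833, above the threshold as the design fixes. Without 1 liver they ranged from 0.56 to 0.79, from -0.48 to -0.39 and from -0.46 to -0.30. Of all tested genes, 136 were called, against 254 with the surrogate variable, 463 by DESeq2, 89 with the replicate block and 62 to 208 without 1 liver. Context genes called higher numbered 2 by DESeq2, and those called lower 3 by DESeq2 and 0 to 1 without 1 liver. Pairs of the 9 genes that passed by Pearson's r numbered 6, against 0 with total counts and 0 to 6 without 1 liver. Both settings were added after seeing the data. The sign of the log2 fold change turned without some liver for *Inmt* (range -0.039 to 0.22), *Aox3* (-0.15 to 0.047), *Gatm* (-0.034 to 0.16), *Mettl7b* (-0.066 to 0.021) and *Slc6a6* (-0.13 to 0.054). It also turned with the surrogate variable for *Gatm* (-0.0088) and *Mettl7b* (0.029), and with total counts for *Mettl7b* (0.013) and *Slc6a6* (0.011), none of them called. The causes were not tested. With 5 livers per group the interval of *Nnmt* covers both a fall to 0.386-fold and a rise to 1.27-fold, while its lowest count in a liver was 850.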
